A study of Mus musculus with 16 samples.

Results

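The keratin-associated proteins are a family of small structural proteins of hair, encoded in the mouse by the Krtap genes. Members were all probes on the array whose current gene symbol, updated through the Entrez identifier, starts with Krtap. This gave 30 probes of 25697, each for a different gene of 16593 named on the array, in 14 numbered subfamilies, and 28 of them were measured well enough to be tested. RefSeq lists 56 Krtap genes in the mouse, so 26 had no probe on this array. Total RNA from dorsal skin of mice aged 15 days, on a mixed C57/BL6;129Ola background, was hybridized to 16 Illumina bead arrays, 4 for each of 4 groups. Shp2lof mice carried the Krox20-cre driver with a floxed allele of Shp2 (Shp2fl), Mek1gof mice the same driver with the Mek1fstop/+ allele of Mek1, and Double mice both. For the control mice no genotype was found, nor whether they carried the driver. The Krox20 gene (Egr2) that drives the Cre is known to be active in Schwann cells and in part of the hair follicle, so only some cells of a skin sample carry the changed alleles. The labels do not say that the 4 arrays of one group stand for 4 different animals, so all p-values below measure only the spread between these arrays, which may be technical in part. The sex-linked levels given below differed between arrays within each group.

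Shp2 is a tyrosine phosphatase that relays signals from growth factor receptors to the Ras pathway, and Mek1 is the kinase of that pathway that activates ERK. Keratin-associated proteins are made late in the growing hair, in the cuticle and cortex of the shaft, after the hair keratins. There they fill the space between keratin filaments and are cross-linked to them through cysteines. They fall into classes by composition: high sulfur proteins, ultrahigh sulfur proteins rich in cysteine, and high glycine-tyrosine proteins. Genes of a subfamily lie side by side in clusters and are often nearly identical, so a probe for 1 gene can bind the transcript of its neighbour. Probe sequences were not used here, and how far paralogs shared signal was not tested.

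Between 13022 and 13959 probes were detected per array, with median signals of 71.33 to 95.88 on the scanner's linear scale. Slide and position were read from the array names, as the labels name no batch. By these names slide 1 held replicates 1 and 2 of every group and slide 2 the rest. The positions of each group were fixed, so that position and genotype cannot be told apart. Sex is not labelled. The log2 level of Xist, which is transcribed from the inactive X chromosome of females, was 9.29 and 8.82 on the Mek1gof arrays of slide 1 and 5.02 and 5.77 on those of slide 2. The Y-linked gene Eif2s3y ran the other way, at 5.1 and 6.77 on slide 1 and 10.58 and 10.8 on slide 2. In Mek1gof skin the slide and these levels therefore cannot be told apart, while each slide held a control array of either kind. On the Shp2lof arrays Xist read 5.31, 5.09, 6.12 and 9.12, and Eif2s3y read 10.4, 10.86, 10.55 and 8.01. Control arrays read 4.84, 9.49, 4.74 and 9.48 for Xist, so these levels were not balanced between Shp2lof and control. On 3 arrays (Shp2lof 4, Mek1gof 2 and Double 4) the pair of levels was atypical, with both genes raised on the first 2 and an intermediate Xist level (6.96) without Eif2s3y (4.39) on the last, and results were recomputed without them. As markers of the labelled tissue, 12 of 19 hair shaft keratin and cuticle genes and 9 of 12 inner root sheath genes could be tested, and 13 of 13 skeletal muscle genes could be tested too.

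Levels are log2 values after background correction and quantile normalization, and differences are log2 differences between group means with their standard errors (SE). A probe was tested if detected on at least 4 arrays, and was called past the threshold when its limma p, adjusted by Benjamini-Hochberg over all 13765 probes tested, was below 0.05. Of the 30 members 27 were detected on all 16 arrays and Krtap6-1 on 15. Krtap3-2 and Krtap13 were detected on 0 arrays and were not tested. The tested members lie on 4 chromosomes: 10 on chromosome 11 (subfamilies 1, 4, 9 and 31), 13 on chromosome 16 (subfamilies 6, 13, 14, 15, 19, 21 and 26), 4 on chromosome 7 (subfamily 5) and 1 on chromosome 10 (Krtap12-1). The most intense raw signal of a member was 29131.91 for Krtap6-5, below the brightest probe of every array, which read 35700.23 to 45312.94.

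Krtap levels varied between samples of a group more than most probes did. The residual SD had a median of 0.49 on the log2 scale over the 28 members, from 0.197 for Krtap1-5 to 0.805 for Krtap31-1, against a median of 0.245 over all probes tested. The simulated data gave the size of difference that the design could show. Of probes changed by 0.5, 1 and 2 on the log2 scale in simulated Shp2lof minus control data over 13765 probes, 10%, 86% and 100% were called. The changed probes were drawn from all probes tested, with normal noise at the spread that limma gives each probe. Limma draws this spread toward a value common to all probes, so noisy probes were simulated with less noise than they had. These shares therefore do not hold for the members, whose median spread was larger, and recovery in members was not simulated. A shift of 0.5 was mostly below what 4 arrays a group could show even over all probes.

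**Figure D1:**
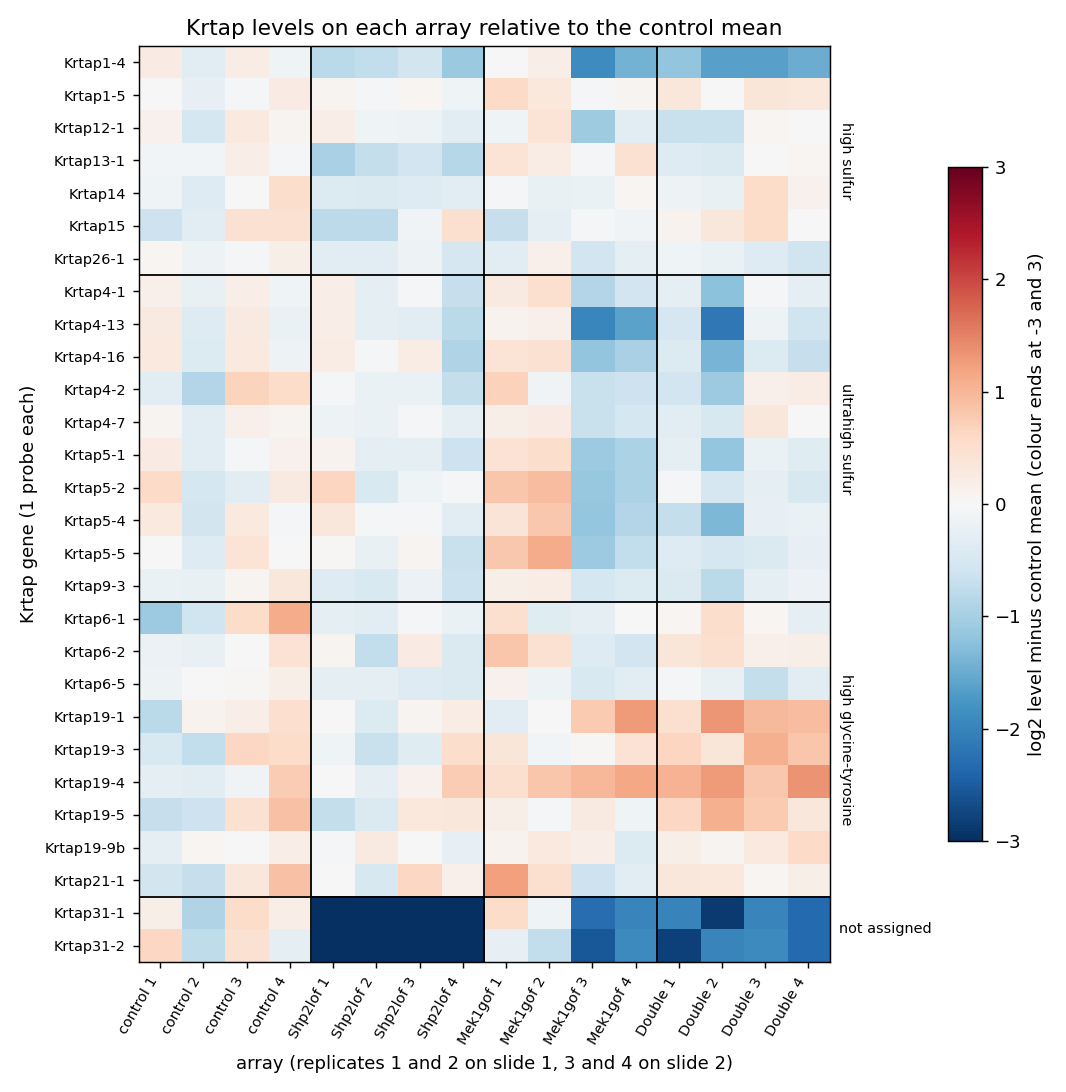
Level of each of the 28 tested Krtap genes (rows, grouped by class) on each of the 16 arrays (columns) as the log2 level minus the control mean, with colours that end at -3 and 3. Krtap31-1 and Krtap31-2 are at the low end on all 4 Shp2lof arrays, and Mek1gof arrays 3 and 4 are lower than Mek1gof arrays 1 and 2 for all 10 ultrahigh sulfur members.

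The 2 members of subfamily 31 had the largest differences from control of the 28 in Shp2lof and in Double skin. Krtap31-1 (chr11:99907920-99908890) and Krtap31-2 (chr11:99936291-99937225) are neighbouring genes on the plus strand of chromosome 11 in GRCm38.p6, and their class was not assigned here. Their upstream windows are shown because the pair fell together, and those of Krtap1-4 and Krtap19-4 because these genes went opposite ways in Double skin. Each window is the 250 bases before the RefSeq transcription start in GRCm38.p6, written in the direction of the gene. The windows are chr11:99907670-99907919, plus strand for Krtap31-1, chr11:99936041-99936290, plus strand for Krtap31-2, chr11:99583678-99583927, minus strand for Krtap1-4 and chr16:88885090-88885339, minus strand for Krtap19-4. Capitals mark 3 motifs on either strand: the TATA box letters TATAAA, the variant letters TATATAA, which can overlap the former, and the CCAAT box.
Krtap31-1: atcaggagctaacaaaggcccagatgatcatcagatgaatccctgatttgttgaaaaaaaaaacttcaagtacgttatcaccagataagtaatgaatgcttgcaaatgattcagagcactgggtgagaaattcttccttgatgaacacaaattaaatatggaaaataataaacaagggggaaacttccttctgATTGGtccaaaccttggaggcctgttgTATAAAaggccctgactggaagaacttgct
Krtap31-2: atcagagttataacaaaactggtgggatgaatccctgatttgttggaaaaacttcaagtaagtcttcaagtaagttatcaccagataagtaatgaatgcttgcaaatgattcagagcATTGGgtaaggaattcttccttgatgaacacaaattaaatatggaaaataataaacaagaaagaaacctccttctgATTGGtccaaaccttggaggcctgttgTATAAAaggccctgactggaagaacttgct
Krtap1-4: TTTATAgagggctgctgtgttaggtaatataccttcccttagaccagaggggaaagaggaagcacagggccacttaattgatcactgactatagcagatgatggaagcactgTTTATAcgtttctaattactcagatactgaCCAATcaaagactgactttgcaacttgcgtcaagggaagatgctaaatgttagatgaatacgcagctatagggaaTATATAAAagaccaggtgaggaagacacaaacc
Krtap19-4: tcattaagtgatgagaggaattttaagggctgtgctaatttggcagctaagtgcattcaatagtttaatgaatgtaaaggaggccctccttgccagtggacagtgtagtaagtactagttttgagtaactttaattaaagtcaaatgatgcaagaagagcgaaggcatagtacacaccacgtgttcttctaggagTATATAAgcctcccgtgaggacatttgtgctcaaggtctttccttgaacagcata

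The windows of Krtap31-1 and Krtap31-2 were identical at 226 of 260 aligned positions (86.9%), and both hold TATAAA and CCAAT. Among 1275 pairs of the 51 Krtap windows the median identity was 51.5%, and the most similar window outside the pair was that of Krtap9-5, with 67.4% identity to Krtap31-2. TATAAA on either strand was in 41 of 51 Krtap windows (80.4%) and in 12.4% of the 32851 windows of all genes. TATATAA was in 35.3% of the Krtap windows and in 3.04% of all. CCAAT was in 33.3% of Krtap windows and in 33.8% of all. CTTTGA, letters of the Lef1 motif, was in 23.5% against 13.8%, and GTGGGCG, letters of the Egr motif, in 1 Krtap window against 7.02% of all. Windows were found for 29 of the 30 members, 23 of them with TATAAA. These matches describe the letters of the windows only.

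Krtap31-2 read 11.85, 10.47, 11.69 and 10.97 on the control arrays, and 7.15, 7.5, 6.84 and 7.99 on the Shp2lof arrays. It read 11, 10.5, 8.7 and 9.33 in Mek1gof and 8.45, 9.27, 9.32 and 8.9 in Double skin. Every Shp2lof and every Double array lay below every control array, and every Double array lay above every Shp2lof array. Mean levels were 11.24 ± 0.643 for control and 7.37 ± 0.491 for Shp2lof arrays, with Mek1gof at 9.88 ± 1.05 and Double at 8.99 ± 0.402 (SD, n = 4). The transcript fell by 3.87 on the log2 scale in Shp2lof skin (SE 0.41, limma adjusted p = 3.38e-05) and fell by 2.26 in Double skin (SE 0.41, adjusted p = 0.00755). In Mek1gof skin the difference from control was -1.37 (SE 0.41, adjusted p = 0.192), which did not pass the threshold.

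Krtap31-1 read 9.92, 8.85, 10.29 and 9.94 on the control arrays and 5.93, 6.03, 6.32 and 6.66 on the Shp2lof arrays. It read 10.29, 9.63, 7.46 and 7.78 in Mek1gof and 7.74, 6.87, 7.78 and 7.42 in Double skin. As for its neighbour, Shp2lof was lowest, Double lay between Shp2lof and control with no overlap, and the Mek1gof arrays split by slide. Mean levels were 9.75 ± 0.624 for control and 6.23 ± 0.327 for Shp2lof arrays, with Mek1gof at 8.79 ± 1.38 and Double at 7.45 ± 0.421 (SD, n = 4). The transcript fell by 3.51 in Shp2lof skin (SE 0.47, limma adjusted p = 0.000351) and fell by 2.3 in Double skin (SE 0.47, adjusted p = 0.0128). Its lowest raw signal over the 16 arrays was 98.66, near background, and that of Krtap31-2 was 182.14. Both were still detected on all 4 Shp2lof arrays. The background offset shrinks differences at such levels, so the sizes of all differences that use the Shp2lof levels of this pair are less certain. The Double call was lost without control replicate 3 (adjusted p = 0.0508). On the slides taken alone the Shp2lof differences were -3.4 and -3.62 for Krtap31-1 and -3.83 and -3.92 for Krtap31-2, and the Double differences were -2.08 and -2.52, and -2.3 and -2.22.

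**Figure D2:**
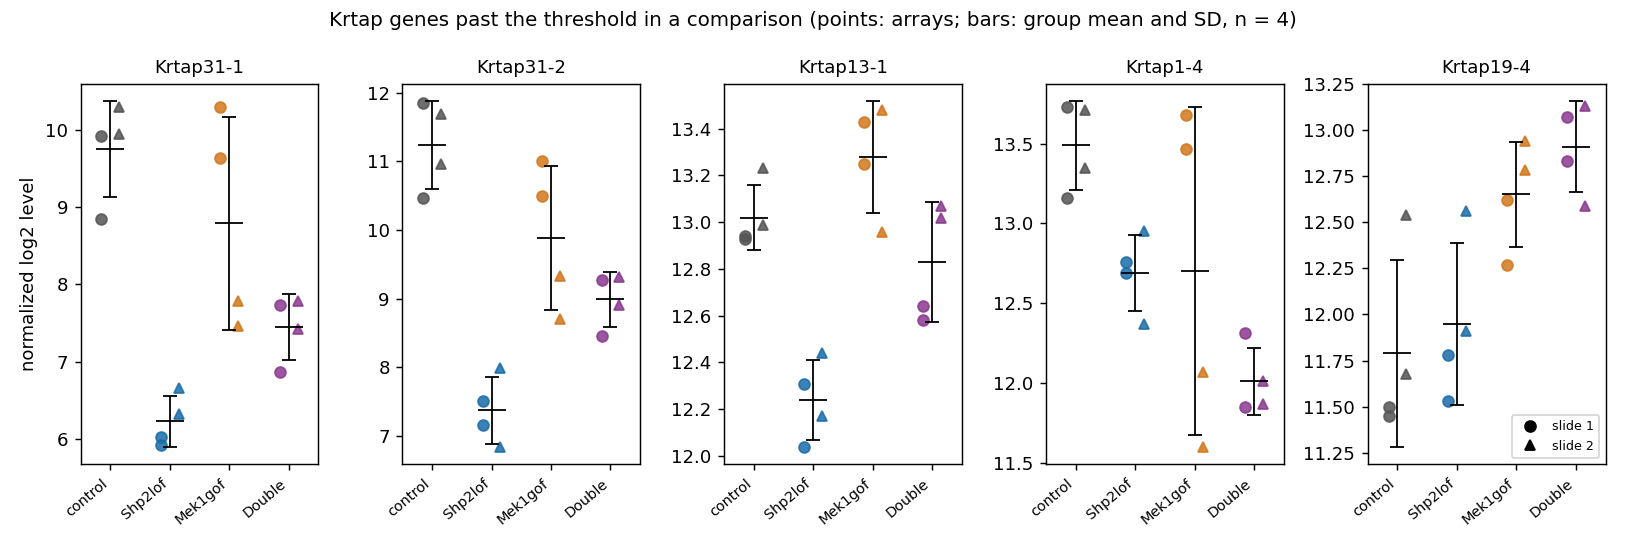
Normalized log2 level of the 5 Krtap genes past the threshold in a comparison, on each array by group, with circles for slide 1 and triangles for slide 2; bars are the group mean and SD (n = 4). Krtap31-1, Krtap31-2 and Krtap13-1 are lowest in Shp2lof, Krtap1-4 is lower in Double than on every control and Shp2lof array, and Krtap19-4 is higher in Double than on every control array.

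Shp2lof skin differed from control in 3 of 28 members, all lower, where 0.915% of all probes tested were called lower and 2.06% in either direction. Besides the pair of subfamily 31 this was Krtap13-1, a high sulfur protein gene on chromosome 16. It read 12.94, 12.93, 13.23 and 12.99 in control and 12.04, 12.31, 12.44 and 12.17 in Shp2lof skin. All 4 Shp2lof arrays lay below all control arrays. The transcript fell by 0.78 (SE 0.15, limma adjusted p = 0.0107), and each slide alone gave -0.76 and -0.8 without passing the threshold (adjusted p = 0.0864 and 0.109). In Mek1gof skin it read 13.43, 13.25, 12.96 and 13.48 and in Double skin 12.64, 12.58, 13.02 and 13.07. Both of these groups overlapped the control range.

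The other 25 members did not pass the test in Shp2lof skin, yet 26 of the 28 differences lay below 0. Their median was -0.2, against 0.01 over all probes tested, and it stood at -0.2 also without subfamily 31. This small shift was not even between the slides, with 14 members lower and a median of 0.03 on slide 1, and 27 members lower and a median of -0.42 on slide 2. All 4 Shp2lof arrays lay below all control arrays for 6 members, where 5.08% of all probes did so, and 8 had an unadjusted p below 0.05, where 15% did. By class the medians were -0.34 for 7 high sulfur members, -0.2 for 10 ultrahigh sulfur members and -0.13 for 9 high glycine-tyrosine members. Krtap1-4 was at -0.8 (SE 0.33, adjusted p = 0.26). The member of each other subfamily with the highest mean level gave small differences: Krtap9-3 was at -0.42, Krtap14 at -0.39, Krtap26-1 and Krtap6-5 at -0.34 and Krtap15 at -0.3. Krtap5-1 was at -0.27, Krtap4-7 at -0.16, Krtap12-1 at -0.1, Krtap1-5 and Krtap19-9b at -0.01 and Krtap21-1 at 0.08, with adjusted p of 0.293 or more for all 11.

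**Figure D3:**
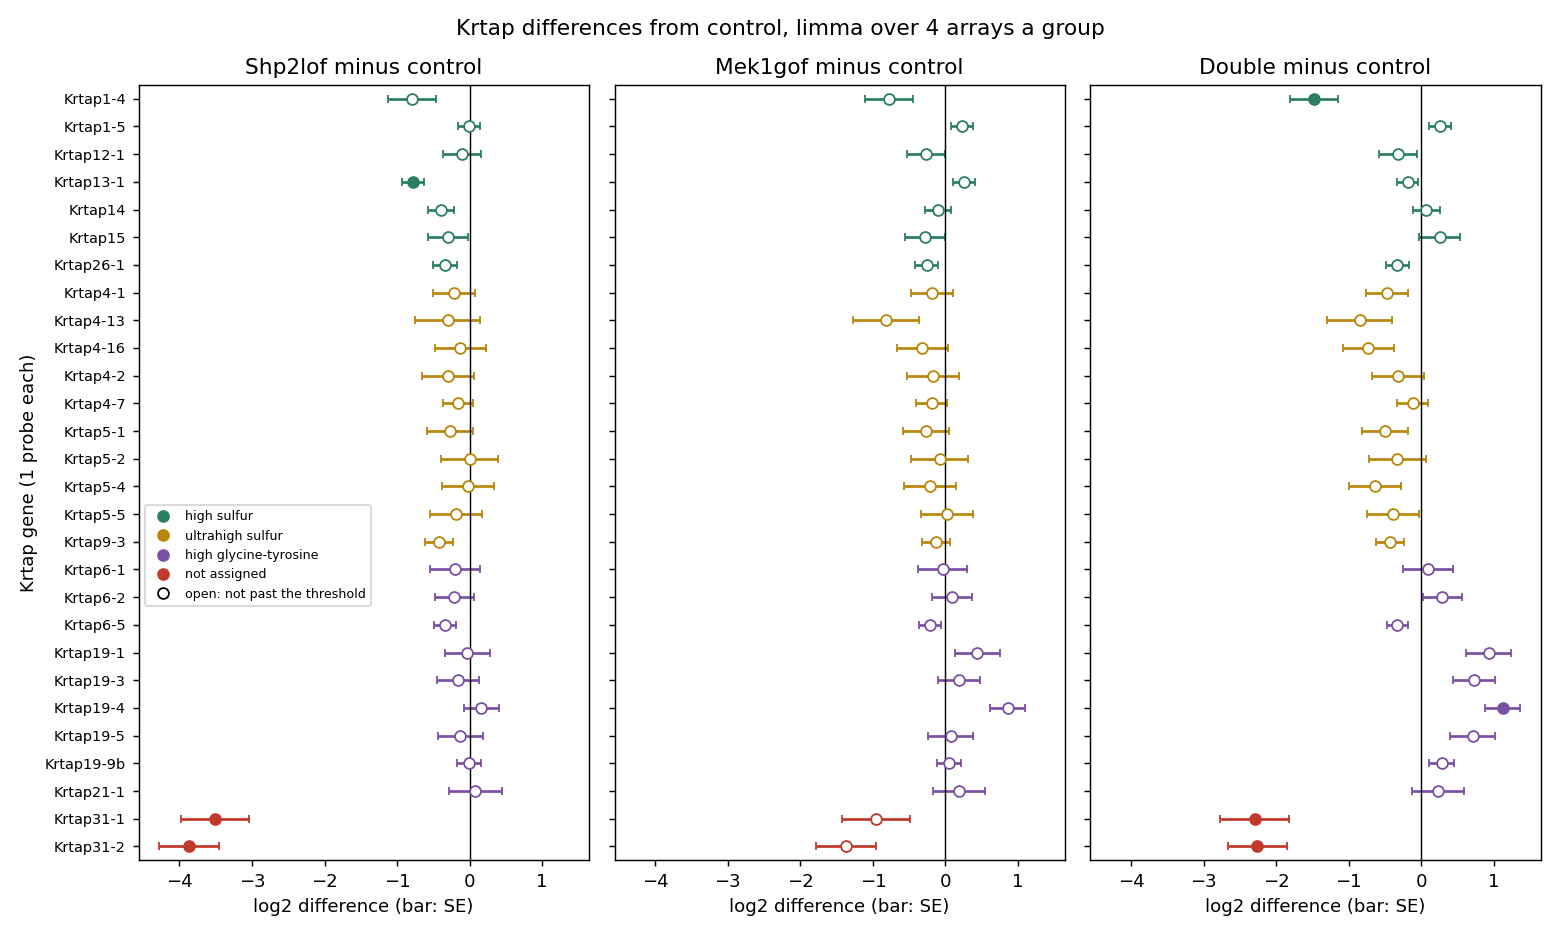
Log2 difference from control with its SE (horizontal axis) for each of the 28 tested Krtap genes (vertical axis, coloured by class) in Shp2lof, Mek1gof and Double skin; filled points passed the threshold. In Double skin the 10 ultrahigh sulfur members lie below 0 and the 5 members of subfamily 19 above 0.

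Double skin differed from control in 4 of 28 members, where 3.44% of all probes tested were called. Of these, 1 was higher (1.42% of all probes) and 3 were lower (2.03%), and the same numbers of members had arrays that did not overlap with control (6.7% of all probes higher and 5% lower). Krtap1-4, a high sulfur protein gene on chromosome 11, read 13.73, 13.16, 13.71 and 13.35 in control and 12.31, 11.85, 11.87 and 12.01 in Double skin. It read 12.69, 12.76, 12.95 and 12.37 in Shp2lof and 13.47, 13.68, 11.6 and 12.07 in Mek1gof skin. All Double arrays lay below all control and all Shp2lof arrays, while Mek1gof was high on slide 1 and low on slide 2. The transcript fell by 1.48 in Double skin (SE 0.33, limma adjusted p = 0.0191), with -1.37 and -1.59 on the slides. The call was lost without control replicate 1, control replicate 3, Double replicate 2 or Double replicate 3 (adjusted p up to 0.0683) and with no detection filter (adjusted p = 0.0615).

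Krtap19-4, a high glycine-tyrosine protein gene on chromosome 16, was higher in Double skin. It read 11.5, 11.45, 11.68 and 12.54 in control and 12.83, 13.07, 12.59 and 13.13 in Double skin, with no overlap. In Shp2lof skin it read 11.78, 11.53, 11.91 and 12.56, within the control range but for 1 array just above it, and in Mek1gof skin 12.27, 12.62, 12.78 and 12.94. The transcript rose by 1.12 in Double skin (SE 0.24, limma adjusted p = 0.0161), with 1.47 on slide 1 and 0.76 on slide 2. The call was lost on slide 2 alone (adjusted p = 0.164) and without control replicate 1, 2 or 3 or Double replicate 2 (adjusted p up to 0.0653). In Mek1gof skin Krtap19-4 was at 0.86 (SE 0.24, adjusted p = 0.155).

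Few single members passed the test in Double skin. All 10 ultrahigh sulfur members (subfamilies 4, 5 and 9) were below 0, with a median of -0.45, a range of -0.85 to -0.12 and none past the threshold. All 5 members of subfamily 19 were above 0, with a median of 0.73. Krtap19-1 was at 0.93, Krtap19-3 at 0.73, Krtap19-5 at 0.71 and Krtap19-9b at 0.28, with adjusted p between 0.0991 and 0.362. With the slide as a block Krtap19-1 passed as well (adjusted p = 0.0385). The subfamily 19 median was 1.25 on slide 1 and 0.37 on slide 2, where Krtap19-1 was at 0.6, Krtap19-4 at 0.76 and Krtap19-5 at -0.1. Of the 9 high glycine-tyrosine members 8 were above 0 and Krtap6-5 was at -0.33. That class had a median of 1.09 on slide 1 and -0.04 on slide 2, and the ultrahigh sulfur class -0.54 and -0.39. Of the 7 high sulfur members 3 were above and 4 below 0, with a median of -0.19. The median over all 28 members was -0.32, against 0.01 over all probes tested. With the slides pooled, these directions were seen in part in the other groups. Of the ultrahigh sulfur members 10 of 10 were below 0 in Shp2lof skin (Krtap5-2 at 0 after rounding) and 9 of 10 in Mek1gof skin. Their medians on slides 1 and 2 were 0.03 and -0.44 in Shp2lof skin, and 0.51 and -1.09 in Mek1gof skin. Of subfamily 19, 5 of 5 members were above 0 in Mek1gof skin and 1 of 5 in Shp2lof skin. The subfamily 19 median in Mek1gof skin was 0.73 on slide 1 and -0.21 on slide 2. All groups were set against the same control arrays, so shared signs are not independent. The difference between classes was not tested, since members of a class share clusters and may share signal.

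In Mek1gof skin 0 of 28 members passed the threshold against control in limma, where 0.414% of all probes were called, and 3 had an unadjusted p below 0.05, where 9.41% of all probes did. The smallest adjusted p was 0.155. With array weights Krtap19-4 was called (adjusted p = 0.0474). The slides gave different values. On slide 1 the Mek1gof arrays were lower than control for 3 of 28 members, with a median of 0.46, and on slide 2 for 25 of 28, with a median of -0.74. Over all probes tested the medians were 0 and 0.02.

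The change of the Mek1gof difference from slide 1 to slide 2 was tested for each member, a test chosen after seeing the data. It passed the threshold for 5 of 28 members, all lower on slide 2, where 0.298% of all probes were called. At an unadjusted p below 0.05 it held for 21 of 28, where 15.2% of all probes did so. Krtap31-1 went from 0.58 on slide 1 to -2.49 on slide 2 (change -3.07, SE 0.47, limma adjusted p = 0.0223). Krtap21-1, a high glycine-tyrosine protein gene, went from 1.48 to -1.09 (change -2.57, SE 0.37, adjusted p = 0.0223). Krtap1-4 went from 0.13 to -1.69 (change -1.82, SE 0.35, adjusted p = 0.0433). The remaining 2 calls, named here after their values were seen, were the ultrahigh sulfur genes Krtap5-5 (change -2.27, adjusted p = 0.0223) and Krtap4-2 (change -2.15, adjusted p = 0.0274). Krtap4-2 was near background, with raw signals of 78.99 to 217.3, and its control arrays alone differed by 1.22 between slides.

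Krtap5-5 read 8.45 and 8.77 on the Mek1gof arrays of slide 1 and 6.55 and 6.91 on those of slide 2, with control at 7.63, 7.27, 8.06 and 7.63. Krtap21-1 read 13.59 and 12.82 on slide 1 and 11.74 and 12.02 on slide 2, with control at 11.8 and 11.65, and 12.7 and 13.23. The Mek1gof arrays of the 2 slides thus lay on opposite sides of the control arrays of their own slide for both genes. The control arrays themselves differed between slides, by 1.24 for Krtap21-1 and by 0.4 for Krtap5-5 (slide 2 minus slide 1). The number of calls was 0 without control replicate 2, Mek1gof replicate 1, Mek1gof replicate 3 or Mek1gof replicate 4, 2 without control replicate 4 and 9 without Double replicate 1 or 2, so it depends on single arrays. It was also 0 with a background offset of 4 or with no detection filter. The share of all probes called in these repeats is not given here, so their counts cannot be read as results about the family.

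Other measures moved with the slide in Mek1gof skin. The summed level of 8 melanocyte genes lay between 9.62 and 13.03 on the Mek1gof arrays, with slide means of 10.29 and 13, against 11.05 to 11.99 on the control arrays, and their median difference from control was -0.92 on slide 1 and 1.52 on slide 2. The 13 skeletal muscle genes had median differences of -0.24 and -1.06. Xist and Eif2s3y also split by slide there, as given above. With the Xist level as a covariate the test between slides called 5 members, 4 of them among the 5 called without it, and 0.0509% of all probes. Over the 4 groups the Xist term was called for 0 of 28 members in limma (0.0436% of all probes) and had an unadjusted p below 0.05 for 1 (12.6% of all probes). Since Xist and slide went together in Mek1gof skin, these fits do not tell them apart there. The part of the melanocyte and muscle levels in the Krtap split was not tested. On the Double arrays Xist was at 9.13 and 10.04 on slide 1 and at 5.55 and 6.96 on slide 2, with melanocyte means of 11.39 and 13.35. Their Krtap medians were -0.23 and -0.34 over all members, and 1.09 and -0.04 over the high glycine-tyrosine members. The same test in Double skin passed the threshold for 3 of 28 members (2.57% of all probes). These were Krtap6-1, Krtap19-5 and Krtap21-1 with changes of -2.09, -1.62 and -1.45. Krtap6-1 was near background, with raw signals of 67.67 to 171.72, and read 4.75, 5.23, 6.38 and 6.94 on the control arrays. In Shp2lof skin the test between slides called 0 members in limma (0.00726% of all probes), with 2 at an unadjusted p below 0.05 (5.7% of all probes).

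**Figure D4:**
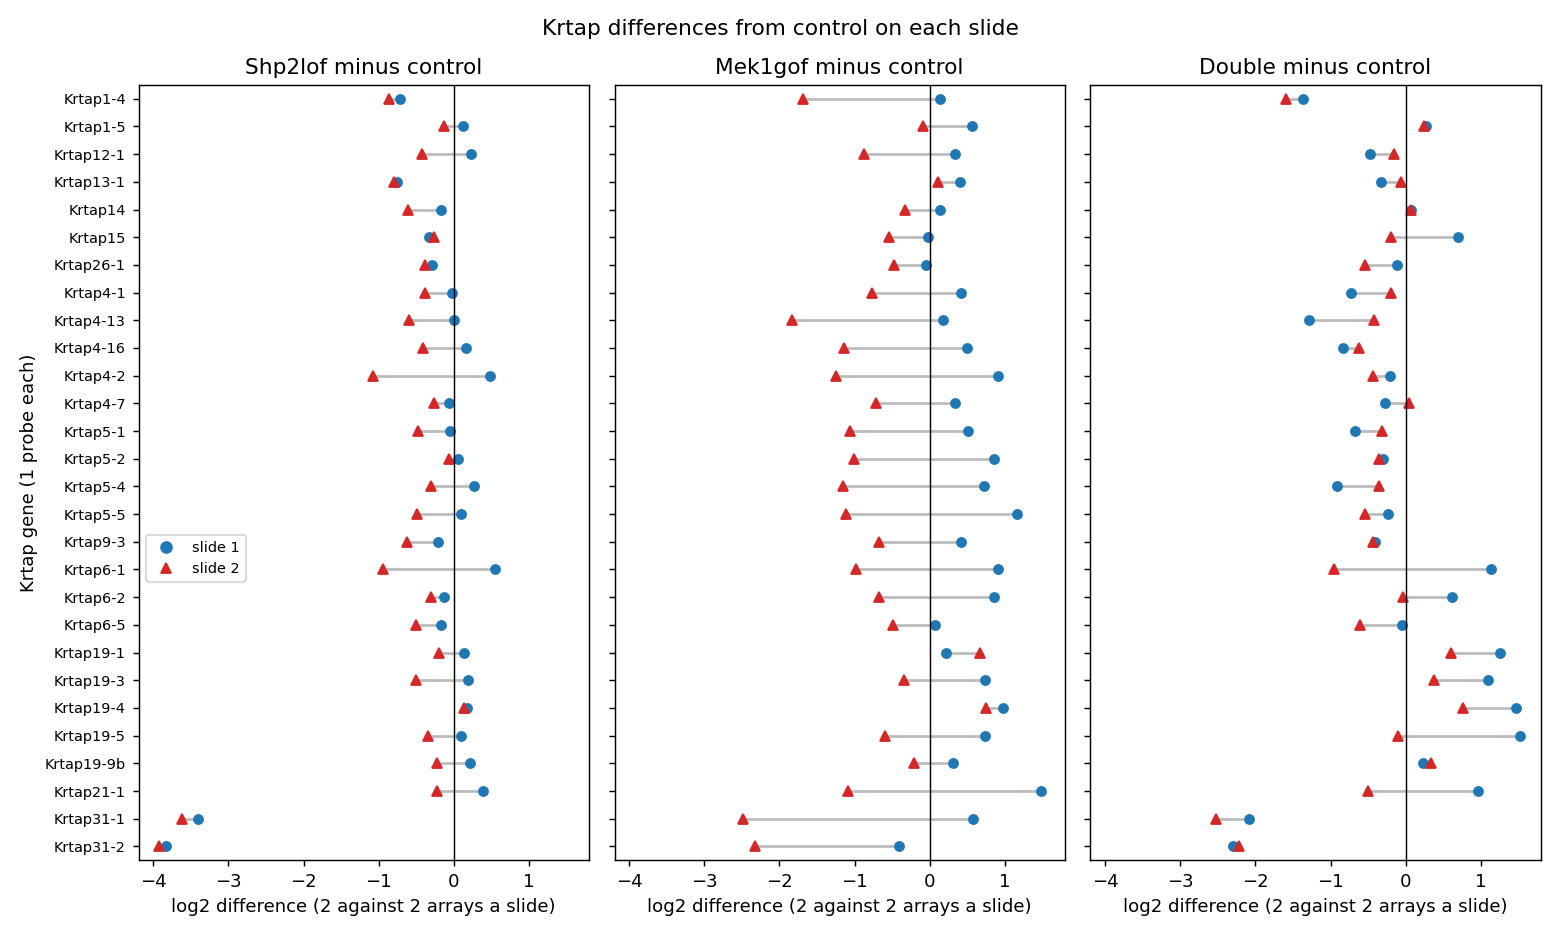
Log2 difference from control (horizontal axis) of each of the 28 tested Krtap genes computed on slide 1 alone (circles) and slide 2 alone (triangles), 2 mutant against 2 control arrays each, in Shp2lof, Mek1gof and Double skin. In Mek1gof skin 25 members lie below 0 on slide 2 and 3 on slide 1, while Krtap31-1 and Krtap31-2 lie near the same place on both slides in Shp2lof and in Double skin.

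The mutant groups were then set against each other. Mek1gof was higher than Shp2lof in 3 of 28 members, where 1.18% of all probes were called higher and 2.08% in either direction. Krtap31-1 was higher by 2.56 (SE 0.47, limma adjusted p = 0.00488), Krtap31-2 by 2.51 (SE 0.41, adjusted p = 0.00165) and Krtap13-1 by 1.04 (SE 0.15, adjusted p = 0.000694). The slides gave 3.98 and 1.13 for Krtap31-1, 3.42 and 1.6 for Krtap31-2 and 1.17 and 0.91 for Krtap13-1. Without the 3 arrays of atypical Xist and Eif2s3y levels the Krtap31-1 call was lost (adjusted p = 0.0532), and on slide 2 alone those of Krtap31-2 (0.0511) and Krtap13-1 (0.0594) were lost.

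Adding the Mek1 allele to Shp2 loss was read from Double minus Shp2lof. Here 0 of 28 members passed the threshold in limma, where 0.726% of all probes were called, and 8 had an unadjusted p below 0.05, where 12.1% of all probes did. Krtap31-2 was at 1.62 (95% interval 0.75 to 2.48, adjusted p = 0.0795) and Krtap31-1 at 1.21 (0.22 to 2.21, adjusted p = 0.294), and all Double arrays lay above all Shp2lof arrays for both, as they did for 6 members in all and for 3.02% of all probes. Fitting these 2 groups alone called both (adjusted p = 0.013 and 0.0305). Krtap19-4 was at 0.96 (adjusted p = 0.0773) and passed with the slide as a block (adjusted p = 0.0306). Krtap13-1 was at 0.59 (adjusted p = 0.0883). Between Double and Mek1gof skin 0 members passed in limma, where 0.225% of all probes were called, with 3 at an unadjusted p below 0.05 (9.38% of all probes) and a smallest adjusted p of 0.35. Slide 1 alone called 5 members here, all lower (1.51% of all probes), and slide 2 alone 1, higher (0.581% of all probes).

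The interaction asks whether the Shp2lof difference depends on the Mek1 allele. No member passed it (0 of 28 in limma, with 4 at an unadjusted p below 0.05, against 0.0726% and 6.74% of all probes). Krtap31-2 had the smallest adjusted p, with an estimate of 2.98 (95% interval 1.76 to 4.2, adjusted p = 0.0711), and Krtap31-1 was at 2.17 (0.77 to 3.57, adjusted p = 0.478). Slides 1 and 2 taken alone gave 1.95 and 4.01 for Krtap31-2, and 0.74 and 3.6 for Krtap31-1. Array weights brought Krtap31-2 to an adjusted p of 0.0337. It also passed without control replicate 2 (0.0488), Mek1gof replicate 1 (0.0123) or Double replicate 1 (0.0437), so the call turns on single arrays.

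Other hair genes were tested in the same fits, in which 2.06% of all probes were called for Shp2lof, 0.414% for Mek1gof and 3.44% for Double against control. At these shares few calls fall on a list of 9 to 12 genes, and the counts below say little about the lists as such. Of 12 measured hair shaft keratin and cuticle genes 0 passed in Shp2lof skin (smallest adjusted p = 0.122), with all 12 below 0 and a median of -0.3. Of the same 12, 0 passed in Mek1gof skin, and in Double skin 1 fell, Dsg4, a desmosomal cadherin of the hair shaft, at -0.95 (SE 0.19, limma adjusted p = 0.0124). Of 9 hair matrix transcription factors 0 passed in Shp2lof, Mek1gof or Double skin against control. Foxn1, which drives hair shaft differentiation, was at -0.56, -0.38 and -0.57 in the 3 mutant groups. Hoxc13, a direct regulator of hair keratin genes, was at -0.5, -0.51 and -0.74. The median of this list was -0.02 in Shp2lof skin, with 3 of 9 above 0. It was -0.38 in Mek1gof and -0.3 in Double skin, with 1 and 2 of 9 above 0. Foxq1 at -0.6 and Lef1 at -0.67 had the smallest p of the list in Mek1gof skin. These 2 genes were at 0.01 and -0.02 in Shp2lof skin. Of 9 inner root sheath genes 0 passed in any of the 3 comparisons with control. The summed level of the hair shaft list ran from 16.92 to 17.06 on control arrays, from 16.65 to 16.77 on Shp2lof arrays, from 16.84 to 17.08 on Mek1gof arrays and from 16.62 to 17.07 on Double arrays. That of the 28 Krtap members ran from 17.4 to 17.84, 17.27 to 17.51, 17.18 to 17.92 and 17.35 to 17.68 in the same order. In whole skin fewer hair-forming cells and less transcript per cell cannot be told apart.

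Some genes of other lists also passed in these samples. In Shp2lof skin, where 2.06% of all probes were called, 2 of 7 cell cycle genes rose, Plk1 by 0.97 and Prc1 by 0.85 (limma adjusted p = 0.0472 and 0.0268). There 4 of 9 fibroblast and matrix genes fell, Col1a1 (-1.14), Col1a2 (-1.07), Sparc (-0.66) and Eln (-0.63). Of 6 sebaceous gland genes 2 fell there, Cyp2g1 (-3.2, adjusted p = 4.25e-05) and Awat2 (-1.92, adjusted p = 0.0188). Of 5 macrophage and leukocyte genes 1 rose there, Fcgr4, an Fc receptor gene, by 2.45 (adjusted p = 7.23e-06). Elovl3, a fatty acid elongase of the sebaceous list, rose by 1.42 in Mek1gof skin (adjusted p = 0.00202; 0.414% of all probes called) and by 1.23 in Double skin (adjusted p = 0.00321), where Cyp2g1 of the same list was at -1.61 (adjusted p = 0.0169). In Double skin, where 3.44% of all probes were called, 9 of 13 skeletal muscle genes fell, with a median difference of -1.25 over the list. Summed muscle levels there were 15.63 to 16.63, against 16.49 to 17.06 in control. The part of these lists in the Krtap differences was not tested.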

How the data were processed

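Mouse dorsal skin RNA was measured on 16 one-colour Illumina arrays. For each probe and array the deposited table holds a bead signal intensity (linear) and a detection p-value; the submitters' processing notes name GenomeStudio, with no version given in the sources used here. The deposited intensity values had not been normalized between arrays, as their medians differed. Another deposited table repeats these intensity values in rounded form (differences of at most 0.05) and was left out.

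Background correction by detection p-value and quantile normalization used the neqc function (limma 3.58.1, R 4.3.3; offset 16), which shrinks differences of probes near background. Symbols came from the platform annotation, updated by Entrez identifier in 23962 probes; 23978 probes had 1 symbol, 0 several and 1719 none, and 0 Krtap symbols changed. A probe was kept with detection p below 0.05 on at least 4 arrays, which left 13765 with a symbol. One model of 4 group means was fitted to all 16 arrays (lmFit and eBayes, 12 residual degrees of freedom), and p-values were adjusted by Benjamini-Hochberg over all 13765 probes, for 7 contrasts. On simulated data 8 of 156 calls were false (5.13%).

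The members and the 13 gene lists (141 genes, 106 tested) were chosen with earlier results of these data known. Named were all Krtap probes past the threshold in a comparison, the member with the highest mean level of each subfamily, Krtap31-1 and Krtap31-2, and, of the other lists, up to 4 members past the threshold or the 2 with the smallest p. Such members were not named for every list and comparison. Foxn1 and Hoxc13 had the 2 smallest p of their list in Shp2lof and in Double skin. Of the lists, 35 genes were not tested, 12 with a probe not detected and 23 with no probe of that symbol here.

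Alternatives were other normalizations, offsets, detection filters, 1 probe a gene, only the groups compared, array weights, a robust and trended variance, slide or replicate number as a block, each slide alone, 3 arrays left out and each array left out. The comparison of slides and the Xist covariate were added after seeing the data. Replicate numbers of different groups did not pair the samples: 24 correlations of same-numbered deviations ran from -0.22 to 0.37, and 9 were over 0.1. No 2 arrays were duplicates (highest Spearman correlation 0.95). Upstream windows came from RefSeq (GRCm38.p6) and were aligned with Biopython 1.88; figures used matplotlib 3.10.9 (Python 3.11.15). The number of arrays limits the precision.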

Additional observations from a re-analysis of the deposited data

Results flagged for a closer look

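Single arrays stood apart from the other 3 of their group in 3 of 64 sets of 4 arrays (16 members in 4 groups), by Dixon's criterion, and chance gives about 1 in 20. Krtap5-1 read 11.98 on Double replicate 2, against 12.78 to 12.93 on the other Double arrays. Krtap1-5 read 13.82 on the same array, against 14.15 to 14.2. Krtap4-7 read 13.9 on control replicate 2, against 14.31 to 14.38 on the other controls.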

How the results depend on the processing

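Of 10 calls of named members, taken over 33 alternatives, 314 of 330 repeats stayed past the threshold in the same direction. Krtap31-1 and Krtap31-2 in Shp2lof and Krtap31-2 in Double skin against control stayed past it in all 33 (log2 differences of -3.81 to -2.89, -4.13 to -3.53 and -2.52 to -2.06). The 1 sign change past a threshold was Krtap21-1 in Mek1gof minus control, at -1.09 on slide 2 alone (adjusted p = 0.0396). In 175 repeats a difference that did not pass the threshold changed sign. Counts of members called moved as follows, and the cause was not tested. For these settings the share of all probes called is given, above, only for Double minus Mek1gof on each slide alone. The other counts therefore cannot be read as results about the family. Slide 1 alone gave 7 for Double minus control, 3 for Double minus Shp2lof and 5 for Double minus Mek1gof. Slide 2 alone gave 9 for Mek1gof minus control, 2 for Double minus Shp2lof, 1 for Double minus Mek1gof and 4 for the interaction. Array weights gave 1 for Mek1gof minus control and 1 for the interaction. Double minus Shp2lof gave 2 with only the groups compared, 1 with the slide block and 1 with a robust and trended variance. Double minus control gave 5 with the slide block and 5 with the replicate block, with Krtap19-1 gained (adjusted p = 0.0385 and 0.0356). The replicate block gave 1 for Mek1gof minus control and 1 for Double minus Shp2lof, both Krtap19-4 (adjusted p = 0.0395 and 0.0136); it also brought Krtap19-4 past the threshold in Mek1gof minus Shp2lof (0.0443), and no call of a named member was lost under it. The change of the Mek1gof difference between slides gave 5 calls, 2 with unnormalized log2 signals, 0 with offset 4 or no detection filter, 8 with quantile normalization without background correction and 10 with a robust and trended variance. Leaving out single arrays gave 3 to 3 calls in Shp2lof minus control, 0 to 1 in Mek1gof minus control, 1 to 4 in Double minus control, 0 to 1 in Double minus Shp2lof, 0 to 0 in Double minus Mek1gof, 3 to 3 in Mek1gof minus Shp2lof, 0 to 1 in the interaction and 0 to 9 for the change between slides. Double minus control fell to 2, 1 and 2 without control replicate 1, control replicate 3 or Double replicate 2. Only the groups compared does not apply to the interaction.

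Signal over background limits Krtap3-2 and Krtap13, which were not detected, and the offset shrinks low members such as Krtap6-1 most. With 4 arrays a group, 10% of simulated differences of 0.5 on the log2 scale were called, in probes drawn from all those tested. Signals of close paralogs were not separated.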

Other observations

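The control arrays of the slides differed most for members of chromosome 16 and for Krtap4-2. Among these, Krtap6-1 and Krtap4-2 had signals near background. Slide 2 minus slide 1 in control was 1.68 for Krtap6-1, 1.34 for Krtap19-5, 1.24 for Krtap21-1, 1.22 for Krtap4-2 and 1.17 for Krtap19-3, each from 2 against 2 arrays with no test; these were chosen after their values were seen. Over the 4 groups together the slide term passed the threshold for 0 of 28 members in limma, where 1.04% of all probes were called, and Krtap15 had the smallest adjusted p (0.59, SE 0.14, adjusted p = 0.055). Undetected Krtap3-2 read 4.39 to 4.85 and Krtap13 4.28 to 4.91 on the log2 scale over the 16 arrays.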
